A study of Mus musculus with 4 samples.

Results

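Long stretches of the mouse genome without any H3K27ac peak were taken from chromatin immunoprecipitation sequencing (ChIP-seq) of salivary gland cells. A stretch was the interval from the end of 1 peak to the start of the next on the same chromosome, and it counted as long at 200 kb or more. Of the 183737 intervals between neighbouring H3K27ac peaks, 573 met this rule (0.312%). Together they span 227 Mb. This is 8.85% of the 2567 Mb that lie between the outermost H3K27ac peaks of the chromosomes. The members were chosen by the positions of the H3K27ac peaks themselves, so the number, length, place and edges of the stretches are given below as description and without a test. Only the p63 peaks come from a library that the rule did not use.

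The cells were epithelial progenitors, taken as primary cells from salivary glands of 12-week-old adult mice that were wild type for p63. All 4 libraries share this source: a ChIP with the mouse monoclonal antibody 4A4 to p63, its input, a ChIP with an antibody to H3K27ac, and its input. Each of the 2 peak lists, with 183757 H3K27ac and 4130 p63 peaks on mm9, comes from 1 ChIP library set against 1 input, so there are no replicates and no value below carries an error between cultures or animals. The lists hold positions only, and no marker of the cell type could be checked in them. The depth is unknown, and the absence of a called peak does not show that acetylation is absent.

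H3K27ac is the acetylated form of a lysine in the tail of histone H3. It is placed by the acetyltransferases p300 and CBP, removed by histone deacetylases, and marks the nucleosomes beside active promoters and enhancers. Long parts of mammalian chromosomes lack it in any given cell type, among them gene deserts, chromatin held at the nuclear lamina, and clusters of gene families that are silent outside their own tissue, such as the receptor genes of the olfactory system. p63 is a transcription factor of the p53 family that basal epithelial cells depend on, and it is known to bind enhancers. No gene was assigned to a stretch and no sequence is shown, since neither genome sequence nor annotation of mm9 was used.

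Most stretches were only a little longer than 200 kb, and a few were very long. The median length was 261 kb (quartiles 223 and 338 kb) and the mean 396 kb. Stretches of 200 to under 300 kb made up 364 of the 573 (63.5%) and held 38.0% of the summed length. Those of 500 kb or more numbered 60 (10.5%) and held 37.8% of it, and the 24 of 1 Mb or more held 27.3%. The 10 longest alone summed to 39.8 Mb, or 17.5% of the length of all stretches.

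The cut at 200 kb does not fall at a break in the lengths. Just inside it were chr3:77158784-77358986 (200203 bases), chr18:86115504-86315725 (200222 bases) and chr9:17275463-17475700 (200238 bases). The nearest intervals left out were chr1:141435170-141634988 (199819 bases), chrX:147578582-147778397 (199816 bases) and chrX:113201874-113401654 (199781 bases). None of these 6 intervals held a p63 peak. Within 10 kb of the limit there were 68 stretches above it and 80 intervals below it.

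**Figure D1:**
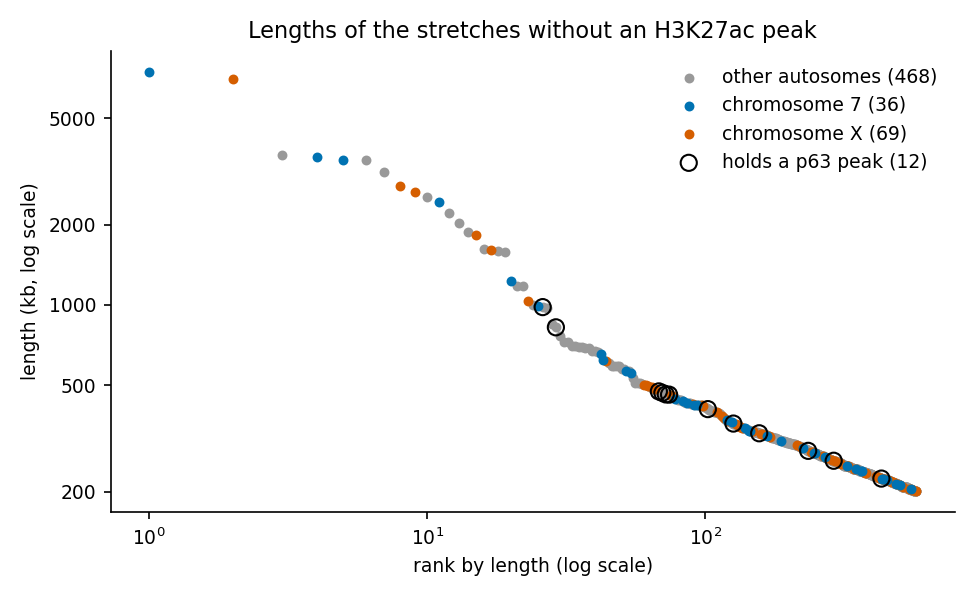
Each point is 1 of the 573 stretches, with its rank by length on the horizontal axis and its length in kb on the vertical axis, both on log scales. Chromosome 7 and chromosome X hold 6 of the 10 longest stretches, and none of the 12 stretches with a p63 peak (circled) is 1 Mb or longer.

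The longest stretch, chr7:39056838-46522152, ran for 7.47 Mb. The next, chrX:23523584-30524281, spanned 7.001 Mb. After these 2 came a gap in the lengths, and 4 stretches of nearly equal length followed: chr12:21527380-25160958 (3.63 Mb), chr7:20607218-24185332 (3.58 Mb), chr7:7252543-10751630 (3.499 Mb) and chr14:41996607-45478907 (3.48 Mb). The remaining 4 of the 10 longest were chr2:174731769-177874435 (3.14 Mb), chrX:30527004-33319417 (2.79 Mb), chrX:144146616-146793720 (2.65 Mb) and chr5:93782138-96309911 (2.53 Mb). None of the 10 held a p63 peak. How much of each stretch is sequence to which reads can be aligned was not measured, and a stretch where few reads can be placed cannot be told apart here from one that lacks the mark.

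The stretches were unevenly spread over the chromosomes, with chromosome X and chromosome 7 at the top. On X, 69 stretches covered 36.0 Mb, or 22.3% of its span, and they made up 15.8% of the length of all stretches although X is 6.28% of the span. The 19 autosomes had 7.65% ± 3.91 of their span in stretches (mean and SD across autosomes, which are not replicates), from 2.15% on chromosome 11 to 19.8% on chromosome 7. X thus had 2.81 times the share found over the pooled span of the autosomes (7.94%). Chromosome 18, with 10 stretches and 2.76% of its span, and chromosome 10, with 21 and 4.41%, were also low, while chromosome 12 had 12.5% and chromosome 17 had 10.1%.

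X and chromosome 7 reached their shares in different ways. Chromosome 7 had 36 stretches, or 24.1 per 100 Mb, close to the autosomal mean of 20.7 ± 5.91 (SD across 19 autosomes), and 4 stretches of 2 Mb or more gave 57.5% of its stretch length. Without those 4 its share was 8.40%. On X the number itself was high, at 42.8 per 100 Mb against at most 32.5 on any autosome (chromosome 17). Leaving out its longest stretch took X from 22.3% to 18.0%, still above every autosome treated alike. Without all stretches of 1 Mb or more, X had 1.95 times the autosomal share.

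H3K27ac peaks were also sparser on X between the stretches. Outside the stretches X carried 39.8 H3K27ac peaks per Mb, against 81.3 ± 10.5 on the autosomes (SD across 19) and 69.05 on the lowest of them, chromosome 14. Chromosome 7 showed the opposite pairing, with 96.2 H3K27ac peaks per Mb outside its stretches, the second highest value after chromosome 11 (107). Across the 19 autosomes, the density outside stretches and the share of span in stretches had a Spearman rho of -0.093, given as a description. The part of sequencing depth or alignability in the values of X was not tested.

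**Figure D2:**
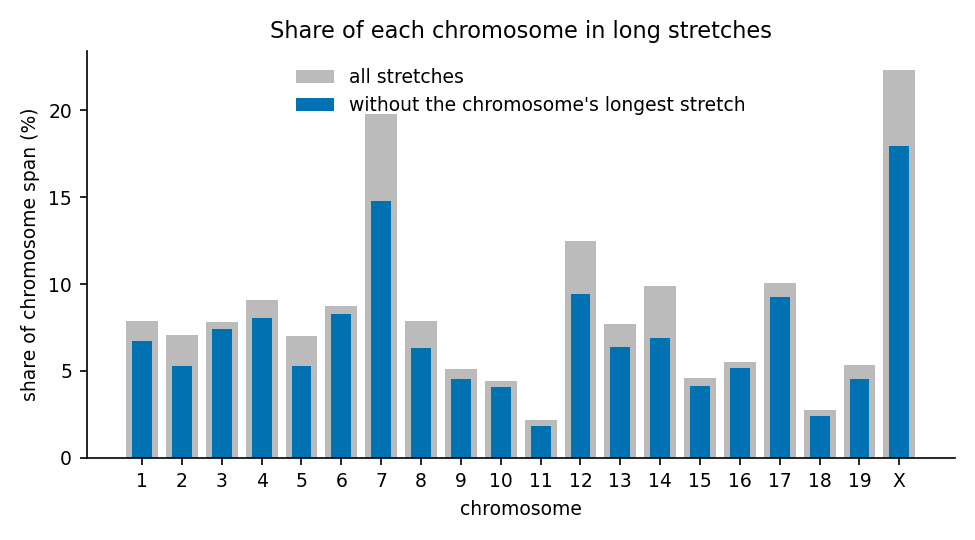
Wide grey bars give the share of each chromosome's span, in percent, that lies in stretches of 200 kb or more, and narrow blue bars the same without that chromosome's longest stretch. Chromosome X (22.3%) and chromosome 7 (19.8%) stand highest, and chromosome 11 (2.15%) lowest.

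Many stretches followed each other closely, separated by a thin island of H3K27ac peaks. Of the 553 neighbouring pairs on the same chromosome, 40 (7.23%) were parted by a single H3K27ac peak, 61 by at most 2 and 125 (22.6%) by at most 5, whereas the median pair had 32 peaks between its members and lay 1.15 Mb apart. When stretches with at most 5 peaks between them were joined into a run, 212 of the 573 (37.0%) belonged to 87 runs, of which 60 had 2 members and 27 had 3 to 5. The other 361 stood alone. Stretches in runs and alone had similar median lengths, 269 and 259 kb. On X 31 of 69 stretches (44.9%) lay in runs, and on autosomes 181 of 504 (35.9%). By the rule, runs form more readily where stretches are many and peaks between them few, as on X. Whether the stretches of X cluster beyond this was not tested.

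The run with the greatest summed length was on X, where the second and the eighth longest stretches were parted by only 2722 bases with 3 H3K27ac peaks. This run, chrX:23523584-33319417, held 9.79 Mb of stretches within 9.80 Mb. The following runs were chr7:20607218-24865463, with 2 stretches, 2 peaks between them and 4.13 Mb, and chr8:19377519-22868510, with 3 stretches, 8 peaks and 3.25 Mb. At chr12:17889045-20926823, 4 stretches of 3.03 Mb in all were parted by 4 peaks, and at chrX:119908692-122851515 3 stretches of 2.94 Mb were also parted by 4. Of these 5 runs, only that on chromosome 8 held p63 peaks, 2 of them, both inside its stretches.

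The peaks that form such islands were narrow. The 40 single-peak islands had a median width of 162 bases, the widest being 282, and 13 of them (32.5%) had 150 bases, the smallest width in the list. Each of these 40 is also an edge peak, and the edge peaks of all stretches had a similar median of 163 bases. The 333 peaks of the 125 islands with at most 5 peaks had a median width of 165 bases, against 191 bases for all H3K27ac peaks. Over the 11.2 Mb that these islands span there was 1 p63 peak.

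The stretches were bounded by narrow, thinly spread H3K27ac peaks and seldom by closely spaced ones. Their 1146 edges were formed by 1106 distinct peaks, since 40 peaks bound a stretch on either side. The median edge peak was 163 bases wide (quartiles 150 and 200), and 400 of them (36.2%) had the smallest width, against 21.7% of all H3K27ac peaks. Only 7 edge peaks (0.633%) were 500 bases or wider, against 7.42% of all peaks. In the deposited list wide peaks tend to come first (Spearman rho of width with row number -0.443 across peaks). Of the edge peaks, 404 (36.5%) were among the first 91878 of the 183757 rows. Width and list order come from the same calls as the rule.

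Beyond the edge the sparse placement went on. In the 100 kb outward of an edge there was a median of 2 H3K27ac peaks (quartiles 1 and 3), against 11 (quartiles 6 and 18) beside all H3K27ac peaks, counted on either side. At 246 edges (21.5%) those 100 kb held none, and at 896 edges (78.2%) the first 10 kb held none. The next peak outward lay at a median distance of 37.4 kb, while the median interval in the list was 5.12 kb. The density over 100 kb outward was 29.8 H3K27ac peaks per Mb, with no bin of 5 kb outside the range from 23.8 to 37.5, and it was 48.7 per Mb between 900 and 1000 kb from the edge, below the 78.5 per Mb found outside the stretches as a whole. These outward windows can run into the next stretch.

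**Figure D3:**
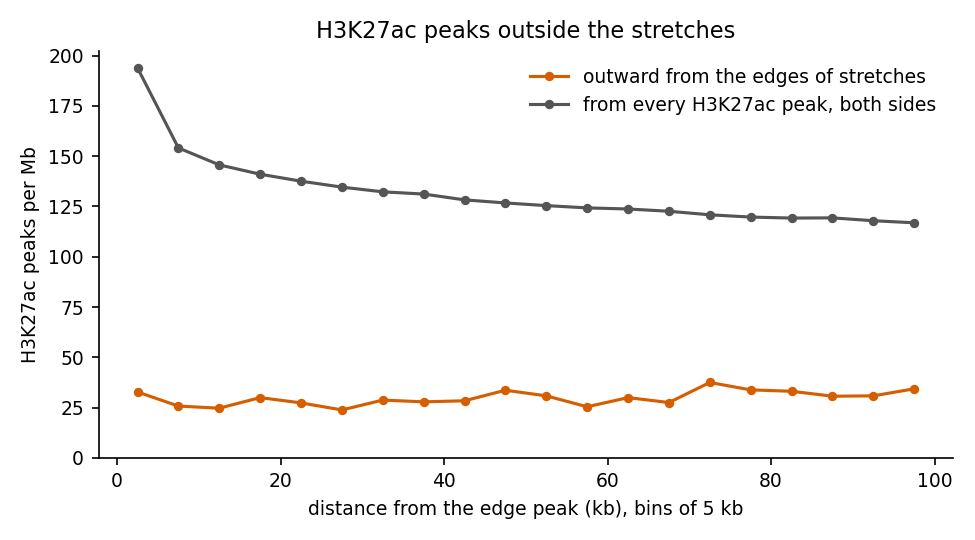
H3K27ac peaks per Mb are plotted in bins of 5 kb against the distance outward from the edge peaks of the stretches (orange) and from every H3K27ac peak on both sides (grey). The orange values stay between 23.8 and 37.5 per Mb, while the grey ones decline from 194 to 117 per Mb.

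This thinning was shared with shorter intervals and changed with length by degrees. The median number of peaks in the 100 kb outward was 8 at the edges of intervals of 10 to under 50 kb, 3 for 50 to under 100 kb, 2 for 100 to under 200 kb and 2 for the stretches, and the median width of the edge peaks was 179, 170, 167 and 163 bases. The share of edges with no peak in 100 kb outward was 2.18%, 7.69%, 14.6% and 21.5% in the same order. Within the stretches this order did not go on. Edges of those of 500 kb or more had a median of 2.5 peaks in 100 kb (quartiles 1 and 6). Edges of those of 200 to under 300 kb had 2 (quartiles 1 and 3). In the same order, the median widths were 168.5 and 161.5 bases, and 18.3% and 21.8% of edges had no peak in 100 kb outward.

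A small number of stretches ended beside a neighbourhood with many H3K27ac peaks, a count that does not give the level of acetylation. At 64 edges (5.58%) the 100 kb outward held at least 11 H3K27ac peaks, the median beside all peaks. Both edges met this limit in 6 stretches, 1 edge did in 52, and neither did in 515. The longest stretch had the widest edge peak of all, 1296 bases at chr7:39055542-39056837, with 19 peaks in the 100 kb beyond it, whereas its other edge was a peak of 213 bases with 2 peaks beyond. Over the 20 edges of the 10 longest stretches the number ranged from 0 to 19, with a median of 4. The highest number at any edge was 45, left of a stretch of 687 kb that begins after chr3:93407046-93407206 and of one of 295 kb that begins after chr19:9209838-9210017. The 100 kb left of the former also held 3 p63 peaks. At the latter the first 10 kb outward held no H3K27ac peak, and the next lay 15310 bases away.

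p63 peaks were rare per base inside the stretches. Of the 4130 p63 peaks, 16 had their midpoint in a stretch (0.387%, Wilson 95% interval 0.239 to 0.628%), and they lay in 12 of the 573 stretches (2.09%, interval 1.20 to 3.62%). Counted by interval, this share was not low, since 1.79% of the shorter intervals held a p63 midpoint, and the difference is in the density per base. The 16 peaks amount to 0.0704 p63 peaks per Mb (exact Poisson 95% interval 0.0403 to 0.114), against 1.45 per Mb (interval 1.4025 to 1.502) in all shorter intervals between H3K27ac peaks. The ratio was 0.0485 (exact conditional 95% interval 0.0277 to 0.0789). That p63 peaks are scarce far from H3K27ac was already known from these lists, so this value adds a size and no independent evidence. Here and below, intervals cover counting error only and treat p63 peaks as independent. Fewer p63 peaks and fewer reads that can be placed cannot be told apart in these lists.

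The p63 density was lower in each longer class of interval, but with all p63 peaks counted neighbouring classes at the long end did not separate. It was 50.7 per Mb in intervals under 1 kb, 3.10 from 1 to under 10 kb, 1.02 from 10 to under 50 kb, 0.432 from 50 to under 100 kb and 0.127 (interval 0.0896 to 0.174) from 100 to under 200 kb. In the stretches it was 0.0991 (interval 0.0542 to 0.166; 14 p63 peaks in 141 Mb) from 200 to under 500 kb and 0.0233 (interval 0.00282 to 0.0841; 2 p63 peaks in 85.9 Mb) at 500 kb or more. The density in all stretches was 0.556 times that in intervals of 100 to under 200 kb, with an interval of 0.290 to 1.02 that reaches 1. This result depends on the group of 5 p63 peaks on chromosome 2 described below. Without that stretch the density in the stretches was 0.0485 (interval 0.0242 to 0.0868). Its upper end lies below the interval of 0.0896 to 0.174 for the class of 100 to under 200 kb. Stretches of 500 kb or more had 0.235 times the density of the shorter ones, again with an interval that reaches 1 (0.0259 to 1.02). The chromosome 2 group gives 5 of the 14 p63 peaks of these shorter stretches, and this ratio was not computed without it. In the 24 stretches of 1 Mb or more there was no p63 peak in 62.1 Mb, which allows a density of up to 0.0483 per Mb (3 counts).

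**Figure D4:**
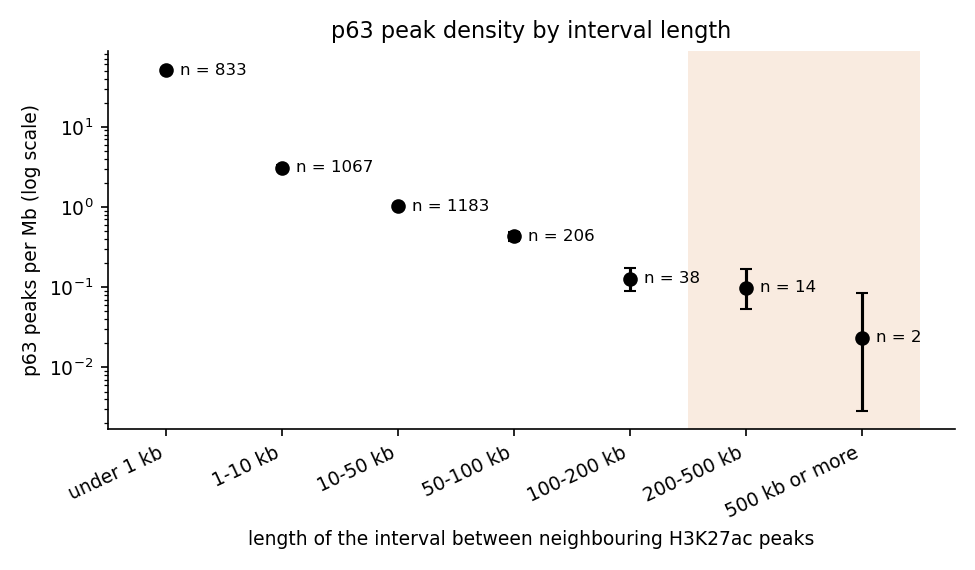
Points give p63 peaks per Mb (log scale) in 7 classes of interval length between neighbouring H3K27ac peaks, with exact Poisson 95% intervals and the number of p63 peaks, and the shaded classes are the long stretches. The density runs from 50.7 per Mb under 1 kb to 0.0233 per Mb at 500 kb or more, and the intervals of the last 3 classes overlap from each to the next. In the class of 200 to under 500 kb, 5 of the 14 p63 peaks lie in 1 stretch on chromosome 2.

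At equal distance from the nearest edge, the p63 density in the stretches overlapped that in intervals of 100 to under 200 kb in each of 3 zones, and in the zone from 10 to 25 kb it was below that in intervals of 50 to under 100 kb. Within 10 kb of an edge the stretches held 4 p63 peaks, or 0.349 per Mb (interval 0.0951 to 0.894), against 0.111 (interval 0.0362 to 0.260) in intervals of 100 to under 200 kb and 0.606 (interval 0.484 to 0.749) in those of 50 to under 100 kb. From 10 to 25 kb the stretches held 1 p63 peak, or 0.0582 per Mb (interval 0.00147 to 0.324). In that zone intervals of 100 to under 200 kb had 0.119 (interval 0.0513 to 0.234), and those of 50 to under 100 kb had 0.452 (interval 0.365 to 0.552), which lies above the interval of the stretches. From 25 to 50 kb from an edge the values in the same order were 0.209 (interval 0.0769 to 0.456), 0.178 (interval 0.109 to 0.275) and 0.205 (interval 0.134 to 0.301). The value of the stretches in this zone rests on 1 place: 5 of its 6 p63 peaks form the group on chromosome 2 described below, and without that stretch 1 p63 peak was left, or 0.035 per Mb (interval 0.000885 to 0.195). With counts this small, wide differences would stay within these intervals. Deeper in the stretches there were 3 p63 peaks from 50 to 100 kb, or 0.0524 per Mb, and 2 beyond 100 kb, or 0.0178 per Mb (interval 0.00215 to 0.0642) over 113 Mb.

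The 16 p63 peaks fell into 3 kinds of place. The deepest was chr13:50855652-50855784 (133 bases), 181 kb from the nearer edge of a stretch of 468 kb, and the next was chr1:103689812-103690094 (283 bases), 151 kb inside a stretch of 359 kb. Both thus lay near the middle of their stretch, at 38.6% and 42.0% of its length. At chr11:15437886-15438038 (153 bases) a peak lay 82.6 kb inside, at chr5:110225397-110225611 (215 bases) 60.8 kb, at chr8:19430491-19430677 (187 bases) 53.1 kb, at chr16:74611738-74611910 (173 bases) 38.7 kb and at chr6:69271407-69271578 (172 bases) 16.002 kb. These 7 were single p63 peaks at least 16.002 kb from either edge, and the nearest other p63 peak was at least 198 kb away from each.

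The second kind was a tight group. The stretch chr2:98465187-98926553 (461 kb) held 5 p63 peaks within 5.08 kb, between 37.3 and 41.9 kb from its left edge, and it was the only stretch with more than 1. They were chr2:98502406-98502645 (240 bases), chr2:98502749-98503112 (364 bases), chr2:98503912-98504103 (192 bases), chr2:98506371-98506529 (159 bases) and chr2:98506629-98507486 (858 bases), the last being the widest p63 peak of the whole list. Whether reads pile up at this place without p63 being bound was not tested, and this bears on 5 of the 16 peaks. Without this stretch 11 p63 peaks remained, or 0.0485 per Mb (interval 0.0242 to 0.0868).

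The third kind lay just inside an edge. The peak at chr3:91817098-91817341 (244 bases) was 359 bases from the H3K27ac peak at the right edge of its stretch, and chr8:22044764-22044997 (234 bases) was 409 bases from the left edge peak. chr17:13735843-13736018 (176 bases) and chr14:53275859-53276079 (221 bases) followed at 1861 and 2922 bases. On chromosomes 3 and 17 the 100 kb beyond that edge held 12 and 17 H3K27ac peaks, and on chromosomes 8 and 14 it held 2 and 0. These 4 sites are thus inside a stretch by the rule, and 2 of them lie within 1 kb of H3K27ac.

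**Figure D5:**
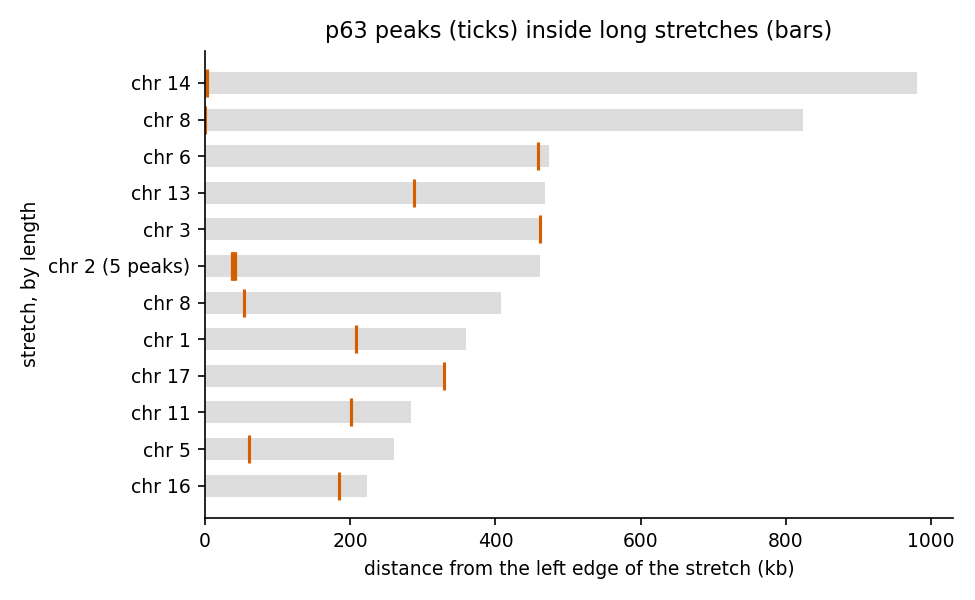
Each grey bar is 1 of the 12 stretches that hold a p63 peak, drawn from its left edge to its length in kb, and orange ticks mark the p63 midpoints. Ticks lie near the middle on chromosomes 13 and 1, close to an edge on chromosomes 14, 3 and 17 and in the longer stretch of chromosome 8, and the 5 peaks on chromosome 2 fall together.

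The widths of the p63 peaks inside the stretches gave no stable difference from the others. They ran from 133 to 858 bases with a median of 204 (quartiles 173 and 241), while the 4114 others had a median of 181 bases (quartiles 144 and 221). None of the 16 had the smallest width of the p63 list, 120 bases, which 8.89% of all p63 peaks had. The difference of 22.5 bases rests on the chromosome 2 group: without it the 11 others ran from 133 to 283 bases with a median of 187, a difference of 6 bases. For intervals of 100 kb or more (54 p63 peaks inside) it was -6.5 bases.

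Around the stretches p63 was also sparse. In the 100 kb outward of the edges there were 64 p63 midpoints, or 0.560 per Mb (interval 0.432 to 0.716), against 3.45 per Mb beside all H3K27ac peaks. The windows beside all peaks overlap, so their 126702 counts come from 4130 p63 peaks and regions dense in H3K27ac weigh more. H3K27ac peaks differed in the same windows too, at 29.8 against 132 per Mb. None of the 1106 edge peaks shared a base with a p63 peak, which allows a share of up to 0.271% (3 counts). Among all H3K27ac peaks the share was 0.839%, but among those under 200 bases, the width of most edge peaks, it was 0.248%, within that limit. Between 900 and 1000 kb outward the p63 density was 0.964 per Mb. At 6 edges (0.524%) a p63 midpoint lay within 10 kb outward, and at 51 (4.45%) within 100 kb. From a stretch to the nearest p63 peak outside it the median distance was 844 kb (quartiles 353 and 1747 kb). These shares of edges and this distance were not computed for other H3K27ac peaks or shorter intervals. They are therefore given as description only.

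The 539 stretches that held no p63 peak and had p63 on either side shared 261 distinct spacings between neighbouring p63 peaks. A stretch fits only into a spacing longer than itself, and wide spacings hold more stretches by their length alone, so the spacings were not compared. The widest spacing, chrX:99676771-126091661, was 26.4 Mb long and held 21 stretches with 8.001 Mb in all, as well as 494 H3K27ac peaks. No p63 peak of X lay in a stretch: with 51 p63 peaks on X, or 0.316 per Mb, the 36.0 Mb of its stretches allow up to 0.0834 per Mb (3 counts). This limit lies above the 0.0704 per Mb of all stretches, so it does not set the stretches of X apart from the others.

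The edges depend on single narrow peaks. When the H3K27ac peaks of the smallest width were left out, 236 of the 573 stretches (41.2%) kept both edge peaks, 261 kept 1 and 76 kept none, and the number of stretches came to 1034. With only the first 91878 rows of the list 85 (14.8%) kept both, and with peaks of 300 bases or more none did. The p63 density relative to shorter intervals was 0.0641 (interval 0.0453 to 0.0882) and 0.0933 (interval 0.0776 to 0.111) under the first and second of these, and 0.182 (interval 0.169 to 0.196) under the third.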

How the data were processed

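ChIP-seq peak lists of p63 and H3K27ac were used as deposited by the authors; they give chromosome, start and end of each peak, with no score. Per the submitters' processing notes, the tools included Bowtie 1.1.1 and MACS2 2.1.0 and the build was mm9; the sources used here do not give settings, threshold or filters. Each list is 1 ChIP library against 1 input. The H3K27ac list was sorted by position, intervals between neighbouring rows were measured, and p63 peaks were placed by their midpoint. Starts are printed counted from 1. Densities carry exact Poisson intervals, ratios exact conditional binomial intervals and shares Wilson intervals, all at 95%. Where no p63 peak was counted, the limit marked as 3 counts is a 1-sided bound. It is lower than the upper end of the 2-sided Poisson interval would be. No p-value was computed, since each group has 1 library. Regions named are the 10 longest stretches, the 3 intervals on either side of the threshold, the 5 runs of greatest summed length, stretches with 2 or more p63 peaks and, as there were under 20, all p63 peaks inside. The 2 edges with the most H3K27ac peaks outward, the widest edge peak and the widest p63 spacing were chosen after their values were seen. The stretches and the measures were chosen with earlier results of these data known. The interval search and counting were tested on simulated data. The software was scipy 1.17.1, pandas 2.3.3, numpy 2.4.6 and matplotlib 3.10.9 under Python 3.11.15.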

Additional observations from a re-analysis of the deposited data

How the results depend on the processing

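The number and length of stretches follow the threshold and the peaks counted. At 100, 150, 300 and 500 kb there were 2818, 1159, 209 and 60 stretches, with 527, 328, 141 and 85.9 Mb. Without the narrowest H3K27ac peaks there were 1034 (381 Mb), with peaks of 200 bases or more 2085 (845 Mb), with peaks of 300 bases or more 2610 (1705 Mb), with the first 91878 rows 1846 (744 Mb) and without lone peaks, those with no other within 10 kb, 1944 (937 Mb). Fewer peaks make longer intervals by construction. The share of span on X over autosomes was above 1 in all 11 alternatives run. It was 2.17, 3.4998 and 3.96 at 100, 300 and 500 kb, 1.99 and 1.34 with peaks of 200 and 300 bases or more, 1.97 without lone peaks and 1.95 without stretches of 1 Mb or more. The last, and those without the longest stretch of each chromosome or the chromosome 2 p63 group or with p63 groups counted once, were chosen after seeing the data. With at most 1 or 2 peaks between neighbours, 13.3% and 19.5% of stretches lay in runs. The p63 density was 0.0233 per Mb at 500 kb, 0.208 and 0.562 with peaks of 200 and 300 bases or more, 0.173 with the first rows and 0.203 without lone peaks, and its ratio to shorter intervals was at most 0.182 in the 17 alternatives run. The p63 width difference reversed to -6.5 bases at 100 kb, and was 40.0 bases at 300 kb and 6 bases without grouped p63 peaks or the chromosome 2 stretch. The causes of these changes in ratio, density and width were not tested. Of 57 alternatives, 22 stayed within their limits, 34 moved and 1 reversed. The limits were a factor of 1.5 for number, length, runs and widths. They were 1 SD across autosomes for the share on X, and the 95% interval of the reported value for the p63 density. Number and length follow the threshold and the peaks counted by construction, so this count does not measure stability. No paired analysis was possible because no group has a second library. The unknown depth limits what an empty stretch shows.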
